A study of Mus musculus with 18 samples.

Results

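The 39 protein-coding Hox genes of the mouse lie in 4 clusters, Hoxa on chromosome 6 with 11 genes, Hoxb on chromosome 11 with 10, and Hoxc on chromosome 15 and Hoxd on chromosome 2 with 9 each. They were taken by symbol (Hoxa, Hoxb, Hoxc or Hoxd and a number) from the 21774 nuclear protein-coding genes of the RefSeq annotation of GRCm38.p6, and all 39 were found. Set against them was a single list of 211682 open chromatin intervals from ATAC-seq, an assay that reads where a transposase can insert adapters into the chromatin. Of these intervals, called peaks here, 43 had their midpoint between the outermost Hox genes of a cluster, and 69 touched a cluster or the 50 kb on either side of it.

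The cells were primary neurons from the cortex of CD1 mouse embryos at embryonic day 14.5 to 15. They were treated with cytosine arabinoside at 2 µM to stop dividing cells, transduced with lentiviral shRNAs on day 6 of culture and taken on day 11. These labels hold for all 18 samples. The labels describe the harvest on day 11 as one for RNA, and the same schedule was taken to apply to ATAC-seq. The 4 groups are shOpa1 with shAtf4 (5 samples), shOpa1 with shScrambled (5 samples), shControl with shAtf4 (3 samples) and shControl with shScrambled (5 samples). Opa1 fuses inner mitochondrial membranes, and Atf4 turns on genes of the cellular stress response. The list does not separate samples or groups, so every value below describes the pooled list, no knockdown comparison could be made, and the values have no SD and no n of cultures. In a list from bulk cultures, a site open in few cells and a site a little open in all cells cannot be told apart.

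Hox genes encode homeodomain transcription factors that give cells their position along the axis from head to tail. Within a cluster the genes stand in the order in which they act: those with low paralogue numbers work in the hindbrain and neck, those with high numbers in the trunk, tail, limbs and urogenital tract, and genes with the same number in different clusters descend from one ancestral gene. Cortical neurons arise in the forebrain, in front of the domains in which Hox genes are switched on, and in forebrain tissue the clusters are a textbook example of chromatin bound by Polycomb complexes, which keep developmental genes silent. Many Hox promoters are rich in CpG dinucleotides, and CpG-rich promoters are as a rule open in many cell types whether or not the gene is highly transcribed.

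The following stretches are the 250 bases before 5 RefSeq starts (GRCm38.p6), each written 5′ to 3′ on the strand of its gene, with the bases under a peak in capitals. They are shown because these promoters differ in what the results turn on: the Hoxd1 stretch lay wholly under a peak, both Hoxd11 stretches lay partly under one, and those of Hoxd13 and Hoxa13, with more CpG than either gene, lay under none. Hoxd13 and Hoxa13 act in the digits and the urogenital tract, Hoxd11 in the forearm and kidney, and Hoxd1 is the Hoxd gene nearest the head end of its cluster's order.
Hoxd1 chr2:74762730-74762979 (+): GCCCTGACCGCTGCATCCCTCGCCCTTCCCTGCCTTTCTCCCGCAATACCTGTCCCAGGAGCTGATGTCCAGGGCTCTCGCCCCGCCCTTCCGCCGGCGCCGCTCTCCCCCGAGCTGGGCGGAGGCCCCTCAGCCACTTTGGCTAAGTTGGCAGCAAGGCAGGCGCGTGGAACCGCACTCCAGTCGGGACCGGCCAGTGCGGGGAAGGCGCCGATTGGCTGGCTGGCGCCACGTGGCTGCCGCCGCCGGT
Hoxd11 outer start chr2:74679308-74679557 (+): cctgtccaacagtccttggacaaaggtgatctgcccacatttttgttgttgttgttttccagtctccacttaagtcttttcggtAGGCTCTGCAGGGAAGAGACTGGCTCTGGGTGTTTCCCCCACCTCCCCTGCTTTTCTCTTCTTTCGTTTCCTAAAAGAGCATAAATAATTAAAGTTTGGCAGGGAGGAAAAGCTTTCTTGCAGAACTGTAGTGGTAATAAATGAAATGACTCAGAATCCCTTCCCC
Hoxd11 inner start chr2:74682073-74682322 (+): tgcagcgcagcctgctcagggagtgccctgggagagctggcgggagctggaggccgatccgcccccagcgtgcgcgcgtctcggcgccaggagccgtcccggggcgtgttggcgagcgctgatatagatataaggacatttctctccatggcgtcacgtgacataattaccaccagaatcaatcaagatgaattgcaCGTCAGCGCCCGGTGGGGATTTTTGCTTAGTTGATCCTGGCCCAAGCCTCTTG
Hoxd13 chr2:74667975-74668224 (+): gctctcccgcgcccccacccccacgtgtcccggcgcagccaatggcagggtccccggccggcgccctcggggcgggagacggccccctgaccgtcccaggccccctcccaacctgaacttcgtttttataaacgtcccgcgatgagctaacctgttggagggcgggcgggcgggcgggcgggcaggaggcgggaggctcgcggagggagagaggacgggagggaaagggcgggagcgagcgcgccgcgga
Hoxa13 chr6:52260881-52261130 (-): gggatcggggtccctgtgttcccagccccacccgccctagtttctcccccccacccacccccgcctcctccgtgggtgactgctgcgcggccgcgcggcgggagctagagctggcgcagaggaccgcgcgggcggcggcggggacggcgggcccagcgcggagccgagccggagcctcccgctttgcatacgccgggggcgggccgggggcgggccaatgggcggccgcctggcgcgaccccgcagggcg
The window of 300 bp that ends 50 bases past the start held 29 CpG at Hoxd1, 4 at the outer and 25 at the inner start of Hoxd11, 37 at Hoxd13 and 45 at Hoxa13. All 250 bases were under a peak at Hoxd1, 166 at the outer and 53 at the inner Hoxd11 start, and 0 at Hoxd13 and Hoxa13.

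Promoters of Hox genes were mostly without a peak. A promoter window (250 bases before to 50 after a start) was given for 22 of the 39 genes, 2 of them with a second window. Only Hoxd1 and Hoxd11 of these 22 genes had a peak in a window, 9.09% with a 95% exact binomial interval of 1.12 to 29.2%, against 64.0% (11187 of 17492) of all protein-coding genes with a window. The intervals given here and below cover counting error alone, and neighbouring Hox genes are not independent of each other. The same window placed at the outermost 5′ end of all 39 genes, a choice made after seeing the first count, held a peak at 5 (Hoxb13, Hoxc8, Hoxc13, Hoxd1 and Hoxd11; 12.8%, interval 4.3 to 27.4%), against 57.7% of 17492 genes. Genes for which no RefSeq promoter window was used here include Hoxa4, Hoxb2, Hoxb3, Hoxb5, Hoxb6, Hoxb7, Hoxb9, Hoxb13, Hoxc5, Hoxc6, Hoxc8, Hoxc9, Hoxc10, Hoxc11, Hoxc12 and Hoxc13. Hoxc4 was the only Hoxc gene with a window, and Hoxb1, Hoxb4 and Hoxb8 were the only Hoxb genes. Counts on RefSeq windows therefore rest mostly on Hoxa and Hoxd and say little about Hoxb and Hoxc.

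The Hox windows held a median of 14.5 CpG, against 13 over all windows, and the Hox share was low among CpG-rich windows too. Of 8 Hox windows with 21 or more CpG, 2 held a peak, those of Hoxd1 and the inner start of Hoxd11, against 6983 of 7151 (97.7%) such windows of all protein-coding genes. The other 6 belong to Hoxa5, a gene of lung and skeletal patterning (29 CpG), Hoxa6 (26 CpG), the inner start of Hoxa10, a gene of the uterus and the lumbar region (21 CpG), Hoxa13, Hoxd10, a gene of lumbar motor neurons (22 CpG), and Hoxd13. They are 6 of the 168 peak-free windows in this CpG class, 3.57%, while Hox windows are 0.112% of all windows in the class. All 8 Hox windows of the class are of Hoxa or Hoxd genes. Of 16 Hox windows with 11 or more CpG, 2 held a peak (12.5%, interval 1.55 to 38.3%), against 94.6% of 11637 windows of all protein-coding genes. Among windows with 5 CpG or fewer, 1 of 3 Hox windows held a peak (the outer start of Hoxd11), against 13.9% of all windows.

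**Figure D1:**
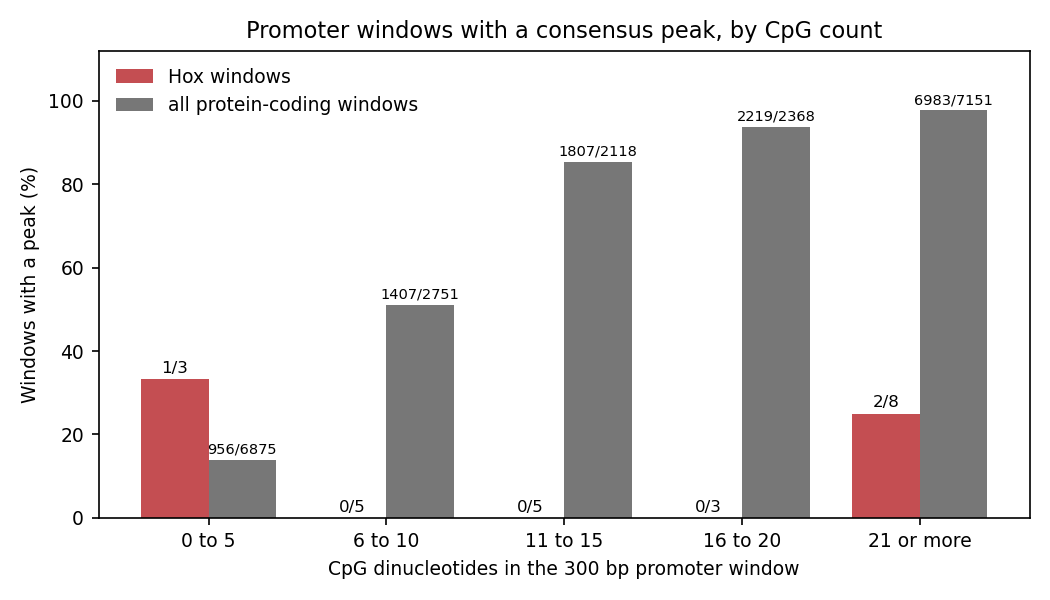
Share of promoter windows with a peak (%, vertical axis) by the number of CpG dinucleotides in the 300 bp window (horizontal axis), Hox windows in red and all protein-coding windows in grey, with counts above the bars and no error bars. In the class of 21 or more CpG the Hox bar stands at 2 of 8 and the bar of all windows at 97.7%.

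Widening the view to 1000 bp around the outermost 5′ end of the gene took in all 39 genes. A peak lay in that reach at 17 Hox genes (43.6%, interval 27.8 to 60.4%), against 65.0% of 17492 protein-coding genes with a known strand. The count differed by cluster, with 2 of 11 genes in Hoxa, 5 of 10 in Hoxb, 5 of 9 in Hoxc and 5 of 9 in Hoxd, and the intervals of the 4 shares overlap. It also differed by annotation: 11 of the 17 genes without a promoter window had a 5′ peak (64.7%), against 6 of the 22 with one (27.3%). Annotation and cluster overlap, since every Hoxd gene has a window and every Hoxc gene but Hoxc4 has none. No Hoxa gene with a window had a peak within 1000 bp of its outermost 5′ end. Whether the count goes with annotation or with cluster was not tested. The outermost end can belong to a longer transcript than the one that carries the promoter window. At Hoxb8, for example, a peak lay within 1000 bp of the outermost 5′ end. None lay within 1000 bp of the start used for its window, the nearest being 2233 bp away. Hoxa10 showed the reverse, with no peak within 1000 bp of its outermost 5′ end but one 605 bp from its inner start.

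The peaks at Hox 5′ ends were mostly beside the first base of the gene and not over it. A peak covered the outermost 5′ base of 4 Hox genes, Hoxb13, Hoxc8, Hoxd1 and Hoxd11 (10.3%, interval 2.87 to 24.2%), against 55.9% of all genes with a strand. The nearest peak began just inside the gene at Hoxc11 (52 bp from the end), Hoxb5 (74 bp), Hoxc5 (78 bp), Hoxd9 (138 bp) and Hoxd13 (156 bp), and it ended 51 bp before the gene at Hoxc13. The median distance from the 5′ end to the nearest peak was 1709 bp over the 39 Hox genes, against 0 bp over all genes with a strand. Along the 5′ ends, the share of Hox genes under a peak was highest 350 bp inside the gene, at 23.1%, whereas it was highest 50 bp inside for genes with a CpG-rich window, at 86.3%, and 50 bp inside for all genes, at 56.3%. The placement of Hox peaks inside the gene rests on few genes, since 5 had their nearest peak within 500 bp on the inside and 2 within 500 bp on the outside.

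**Figure D2:**
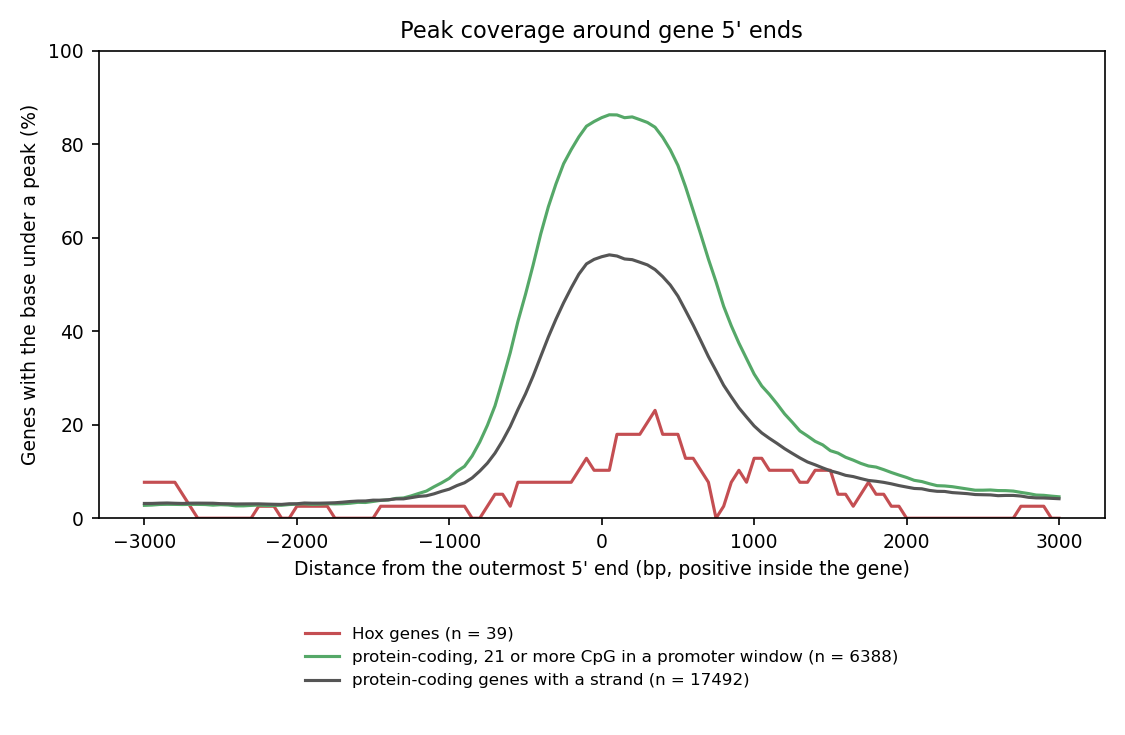
Percent of genes whose base at each distance from the outermost 5′ end (bp, horizontal axis, positive inside the gene, steps of 50 bp) lay under a peak, for the 39 Hox genes (red), 6388 genes with a promoter window of 21 or more CpG (green) and 17492 genes with a strand (grey). At the 5′ end itself the lines stand at 10.3% for Hox genes, 85.7% for CpG-rich genes and 55.9% for all genes.

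Counting both ends of the gene, 19 of 39 Hox genes had a peak within 1000 bp (48.7%, interval 32.4 to 65.2%), against 70.4% of all 21774 protein-coding genes. Where a Hox gene did have an end peak, the widest one was narrow: the median was 479 bp over the 19 Hox genes, from 152 to 1399 bp, against 1133 bp over the 15320 genes of the genome with an end peak. Near the 3′ end 3 of the 39 had a peak, Hoxa9, Hoxb2 and Hoxb8 (7.69%, interval 1.62 to 20.9%), against 25% (4378 of 17492) of genes with a strand.

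In the Hoxa cluster (chr6:52155367-52260880), Hoxa9, a gene of blood stem cells and the posterior trunk, had the widest end peak at 1030 bp (chr6:52221252-52222281), which is also the widest peak of the cluster and lies 816 bp beyond its 3′ end, between Hoxa9 and Hoxa7. Hoxa4 had a peak of 176 bp at 612 bp before its 5′ end. None lay at an outermost end of Hoxa2, Hoxa3, Hoxa5, Hoxa6, Hoxa7, Hoxa10, Hoxa11 or Hoxa13. The distance to the nearest peak from the outermost 5′ ends of these 8 genes was least at Hoxa3 (1097 bp) and greatest at Hoxa11 (7582 bp). A peak of 434 bp inside Hoxa10 lay 605 bp from the inner start of that gene. Of the 10 Hoxa peaks, 5 lay inside a Hox gene away from its ends, 3 of them in the span of Hoxa3, whose 44009 bp come from long transcripts that run past Hoxa4, Hoxa5 and Hoxa6.

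In the Hoxb cluster (chr11:96194316-96368254), 6 of 10 genes had an end peak. The widest peak at any Hox gene, 1399 bp (chr11:96193569-96194967), covered the 5′ end of Hoxb13, a gene of the tail and prostate that stands apart from the other Hoxb genes. Hoxb9, a gene of the thoracic skeleton, had a peak of 652 bp, and Hoxb7 and Hoxb8 shared one of 605 bp, 862 bp before Hoxb7 and inside the 3′ end of Hoxb8. Hoxb5 had one of 407 bp and Hoxb2 one of 152 bp. No end peak was found at Hoxb1 and Hoxb4, genes of the hindbrain, or at Hoxb3 and Hoxb6. Their nearest peaks were 12264 bp from the 5′ end of Hoxb1, 6314 bp from Hoxb4, 3109 bp from Hoxb3 and 1709 bp from Hoxb6.

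In the Hoxc cluster (chr15:102921131-103036856), 5 of 9 genes had an end peak. Hoxc6, a gene of limb-level motor neurons, had the widest at 559 bp, Hoxc13, a gene of hair and nail, had one of 505 bp, and Hoxc8, a gene of brachial motor pools, had one of 479 bp. Hoxc5 had a peak of 453 bp and Hoxc11 one of 308 bp. Hoxc4, Hoxc9, Hoxc10 and Hoxc12 had none, with nearest peaks at 3559, 10438, 11911 and 6052 bp from the 5′ end in that order. Hoxc9 and Hoxc10, which set the thoracic and lumbar motor columns, lie in a stretch of 32.6 kb without a peak, the longest of the cluster.

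In the Hoxd cluster (chr2:74668225-74765142), 5 of 9 genes had an end peak. The widest was 585 bp at Hoxd1, followed by 484 bp at Hoxd13 and 294 bp at Hoxd11, with 268 bp at Hoxd8 and 257 bp at Hoxd9. Hoxd3, Hoxd4, Hoxd10 and Hoxd12 had none, with nearest peaks at 3721, 5812, 1799 and 4379 bp from the 5′ end in that order. The cluster's longest stretch without a peak, 24.3 kb, holds Hoxd4.

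**Figure D3:**
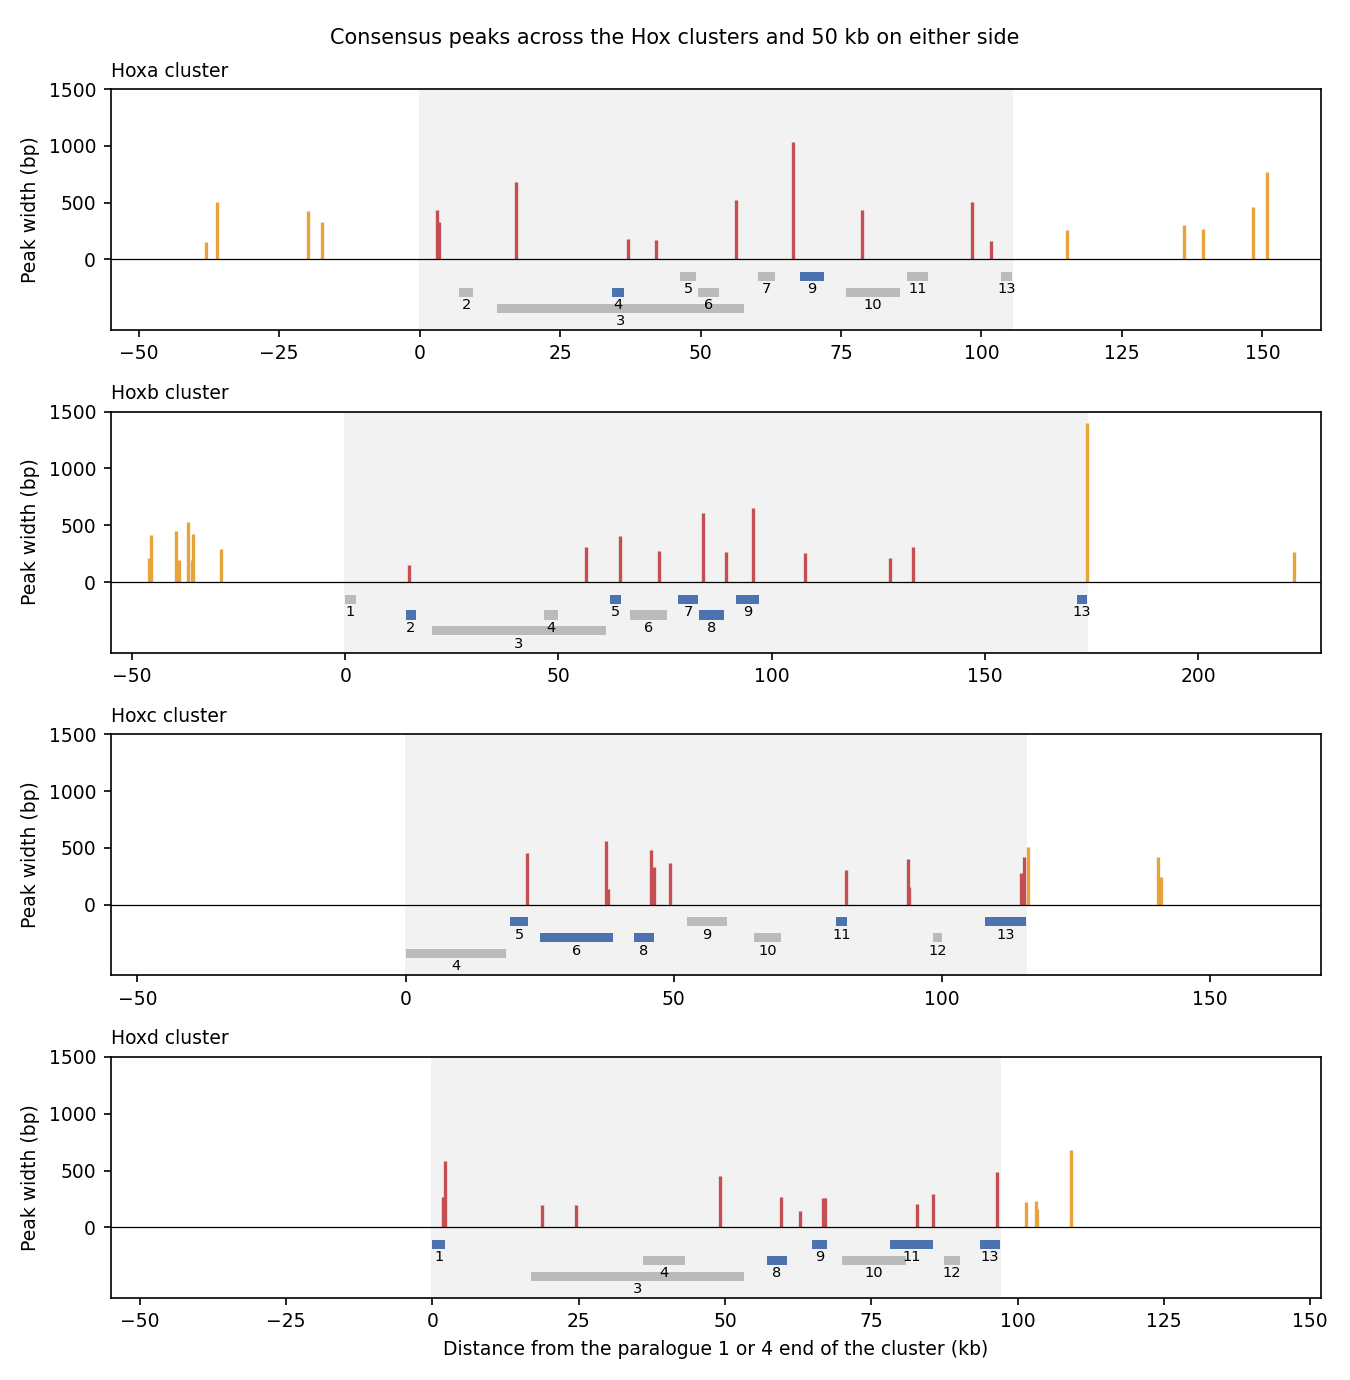
Maps of the 4 clusters with distance from the low-numbered end (kb, horizontal axis) and peak width (bp, vertical axis), each vertical line being 1 peak, red where its midpoint is in the cluster span (shaded) and amber in the 50 kb on either side. Bars below the axis are the Hox genes reported by name with their paralogue numbers, blue with a peak within 1000 bp of an end and grey without. The Hoxb13 peak of 1399 bp is the tallest line, and its midpoint falls just outside the span.

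Read by paralogue number, end peaks did not follow a simple order from the head to the tail end. They were found at 4 of 12 genes of paralogues 1 to 4 (33.3%, interval 9.92 to 65.1%), 7 of 11 genes of paralogues 5 to 8 (63.6%, 30.8 to 89.1%) and 8 of 16 genes of paralogues 9 to 13 (50.0%, 24.7 to 75.3%), and these intervals overlap. All 3 genes of paralogue 8 had one, as did 3 of 4 of paralogue 9 and 3 of 4 of paralogue 13, the exceptions being Hoxc9 and Hoxa13. None of the 3 genes of paralogue 3, the 3 of paralogue 10 or the 2 of paralogue 12 had one. This holds for outermost ends alone. The inner start of Hoxa10 had a peak 605 bp away, and peaks lay inside the long spans of Hoxa3, Hoxb3 and Hoxd3. Median widths of the widest end peak were 254.5 bp for paralogues 1 to 4, 479 bp for 5 to 8 and 494.5 bp for 9 to 13.

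**Figure D4:**
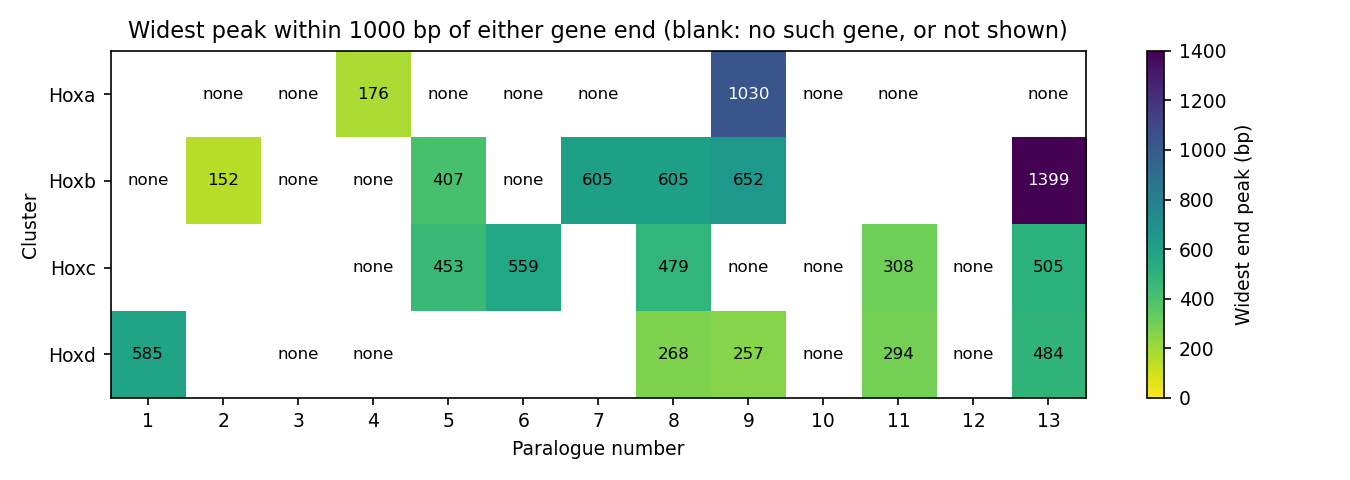
Width of the widest peak (bp, colour and number) within 1000 bp of either outermost end of each Hox gene, with clusters as rows and paralogue numbers as columns. The word "none" marks a gene without such a peak and an empty cell a gene that does not exist or is not shown. The columns of paralogues 3, 10 and 12 hold no peak at an outermost end, and Hoxb7 and Hoxb8 share 1 peak of 605 bp.

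Over whole clusters, peaks were about as dense as in the genome. By median width they were narrower in Hoxb, Hoxc and Hoxd, but not in Hoxa. The 4 clusters together held 43 peaks in 492 kb, 8.74 per 100 kb (exact Poisson interval 6.32 to 11.8), against 7.95 over all nuclear chromosomes. Density was 9.48 per 100 kb in Hoxa (4.54 to 17.4), 5.75 in Hoxb (2.76 to 10.6), 9.51 in Hoxc (4.74 to 17.0) and 12.4 in Hoxd (6.4 to 21.6), all of which overlap. Protein-coding genes are crowded in the clusters, and among the 116 tiles of 100 kb in the genome that hold 8 or more such genes the median was 16 peaks, against 6 over all 26587 tiles. Of those 116 tiles, 69.0% held at least as many peaks as the Hoxd density and 90.5% at least as many as the Hoxb density. Peaks covered 3.27% of the bases of the 4 clusters, from 2.36% in Hoxb to 4.22% in Hoxa, against 4.12% of all nuclear chromosomes.

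Cluster peaks had a median width of 309 bp (95% interval 268 to 422 bp, from order statistics), against 425 bp over all nuclear peaks, and 8 of 43 (18.6%) reached 500 bp, against 38.3% of all. Those 8 were 4 of 10 peaks in Hoxa, 2 of 10 in Hoxb, 1 of 11 in Hoxc and 1 of 12 in Hoxd. Left out are a Hoxb13 peak of 1399 bp and a Hoxc13 peak of 505 bp. Their midpoints fall just outside the spans, so both count with the flanks. The Hoxa median was 436.5 bp, above that of all nuclear peaks. Medians were 291 bp in Hoxb, 368 bp in Hoxc and 262.5 bp in Hoxd. Some Hox peaks came in close pairs, as at Hoxc13, Hoxc8, Hoxc6, Hoxd9 and Hoxd1, where gaps of 1 to 74 bp separated 2 peaks, and at a site 602 bp from Hotair, where the gap was 24 bp. Joining peaks 100 bp or less apart left 36 Hox intervals, 7 of them (19.4%) made of joined peaks, against 8.37% of all intervals. The median width was then 387.5 bp in the clusters and 457 bp over all intervals, and 13 of the 36 (36.1%) reached 500 bp, against 43.9% of all, a smaller gap than before joining. Every one of the 69 peaks carried the ceiling of the deposited score, 1000, as did 98.5% of all peaks, so the score could not rank them.

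By position, 21 of the 43 cluster peaks (48.8%) were within 1000 bp of a Hox 5′ end, 2 were near a 3′ end alone, 11 were inside a Hox gene and 9 were between Hox genes. In Hoxc 8 of 11 were at 5′ ends and 0 inside genes, and in Hoxa 2 of 10 were at 5′ ends and 5 inside genes. The Hoxb13 peak of 1399 bp and the Hoxc13 peak of 505 bp, also at 5′ ends, count with the flanks and not here. With 39 genes in 492 kb, part of the span lies near a 5′ end in any case. No expected share was computed, so whether these shares are high or low was not tested. The wide space between Hoxb13 and Hoxb9 held 3 peaks of 310, 215 and 253 bp. The longest peak-free stretch of any cluster, 41.4 kb in Hoxb, runs across Hoxb4, the gene of miR-10a and most of Hoxb3.

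The 50 kb on either side of the clusters held 26 peaks in 8 flanks, 6.5 per 100 kb (4.25 to 9.52), and 2.42% of their bases were covered. Flanks on the low-numbered side differed most. Beyond Hoxc4 and beyond Hoxd1 there were 0 peaks in 50 kb, which allows a density of up to 7.38 per 100 kb, while there were 8 beyond Hoxb1, the nearest 29035 bp away, and 4 on that side of the Hoxa cluster. On the high-numbered side there were 5 beyond Hoxa13, 2 at and beyond Hoxb13, 3 at and beyond Hoxc13 and 4 beyond Hoxd13. The peak-free stretch that starts inside Hoxc5 and runs over Hoxc4 measured 72.7 kb, and the one that starts inside Hoxd1 measured 61.9 kb.

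**Figure D5:**
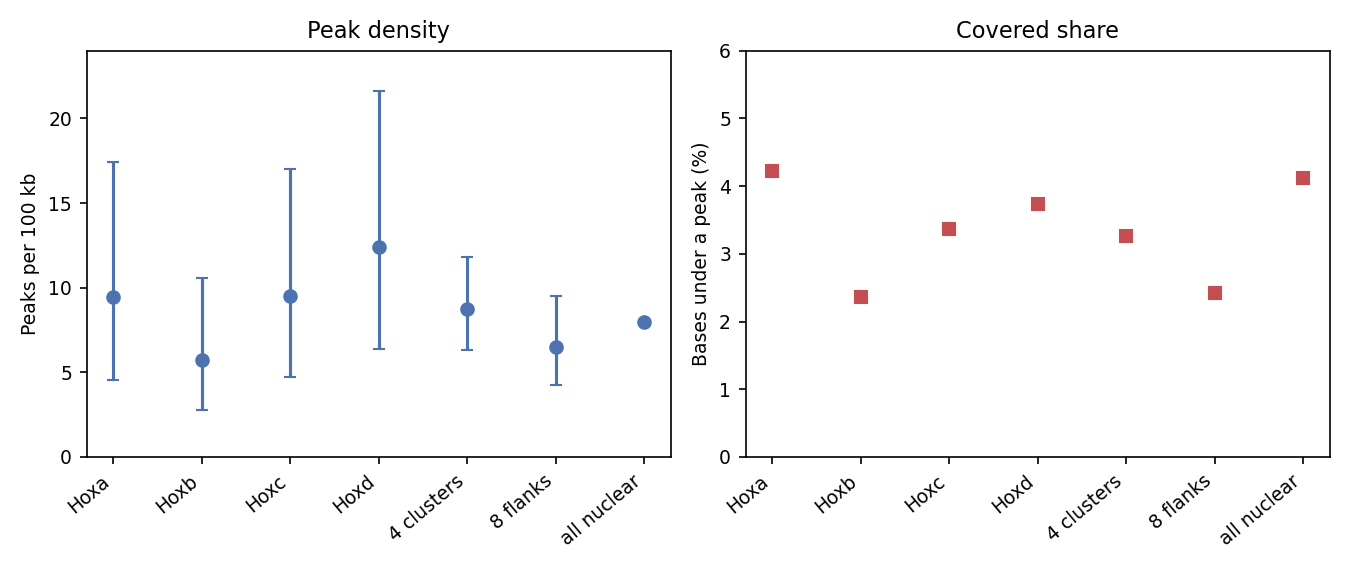
Peaks per 100 kb (left panel, points with 95% exact Poisson intervals, none drawn for the genome) and percent of bases under a peak (right panel) for each cluster, the 4 clusters together, the 8 flanks of 50 kb and all nuclear chromosomes. The interval of every cluster takes in the value of all nuclear chromosomes, 7.95 per 100 kb, and covered shares lie between 2.36 and 4.22%.

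The clusters also hold RNAs that do not code for protein. Of 24 lncRNA genes between the outermost Hox genes, 10 had a peak within 1000 bp of an end, against 56.0% of all lncRNA genes. Gm15050 in the span of Hoxa3 had one of 678 bp, Haglr beside Hoxd1 shared the 585 bp peak of Hoxd1, Hoxd3os1 had one of 453 bp, and Hotair, a transcript between Hoxc11 and Hoxc12 known for its reported link to Polycomb, had one of 404 bp. Hottip, which lies beyond Hoxa13, had none, its nearest peak being 2941 bp away, and Hoxa11os had none either.

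Of the 6 miRNA genes in the clusters, 1 had a peak within 1000 bp, Mir615 inside Hoxc5 at 372 bp, against 36.2% of all miRNA genes, and 0 were overlapped by a peak. The nearest peaks to the others were 3736 bp from Mir196b, 4563 bp from Mir196a-1, 5212 bp from Mir10a, 9904 bp from Mir10b and 14036 bp from Mir196a-2. These miRNAs are embedded among the Hox genes and their families have Hox transcripts among their known targets. Their main mature forms (RefSeq, GRCm38.p6) are shown with the seed, bases 2 to 8, in capitals, since copies in different clusters share it.
miR-10a-5p (Hoxb cluster): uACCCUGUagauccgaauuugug
miR-10b-5p (Hoxd cluster): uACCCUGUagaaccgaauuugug
miR-196a-5p (Hoxb and Hoxc clusters): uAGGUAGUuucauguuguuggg
miR-196b-5p (Hoxa cluster): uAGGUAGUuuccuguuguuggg
miR-615-3p (Hoxc cluster): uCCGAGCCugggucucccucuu
The miR-10 pair has the seed ACCCUGU and the miR-196 genes have AGGUAGU, and neither family had a peak at any of its genes.

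Genes that work with or upon Hox genes were counted on the same measures, against 70.4% of all protein-coding genes with an end peak and a median widest peak of 1133 bp. All 9 of the Hox cofactors (Pbx, Meis and Pknox genes, whose proteins bind DNA together with Hox proteins) had an end peak, with a median widest peak of 1304 bp, and the widest were at Pknox1 (1901 bp), Pbx3 (1579 bp) and Meis1 (1531 bp). All 16 genes of Polycomb and Trithorax proteins and Ctcf, which silence, keep active or insulate Hox clusters, had one, with a median of 1346 bp, and the widest were at Kmt2a (2400 bp), Eed (2019 bp) and Ctcf (1916 bp). Of 12 genes of retinoic acid synthesis, breakdown and reception, a signal that turns on the low-numbered Hox genes in the hindbrain, 10 had one, with a median of 1107.5 bp. The widest were at Cyp26a1 (1867 bp), Rxrb (1341 bp) and Rxra (1338 bp), while Cyp26b1 and Rarb had none at an outermost end, though Rarb had a peak in a promoter window.

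Other homeobox genes were counted in the same way. Of 20 homeobox and related genes of the forebrain, 19 had an end peak, and the widest were at Dlx1 (2431 bp), Cux1 (1958 bp) and Pou3f3 (1836 bp), with a list median of 1284 bp. Of 24 homeobox genes of the hindbrain, spinal cord, gut, pancreas, heart or limb, known chiefly from outside the cortex, 21 had one, against 19 of 39 Hox genes, with a list median of 842 bp against 479 bp for Hox genes. The widest were at En2 (1717 bp), Gbx2 (1622 bp) and Mnx1 (1318 bp), and Cdx4 was among those with none. In windows with 21 or more CpG, a peak was present in 2 of 8 for Hox genes, all of Hoxa or Hoxd. The count was 7 of 7 for that list and 9 of 9 for the forebrain list, and the share was 97.7% of all such windows. Homeobox genes outside these lists also had such windows without a peak, among them Nkx2-4 (38 CpG), Lhx3 (28 CpG) and Lmx1b (24 CpG), so its absence there was not particular to Hox genes. Evx2, a homeobox gene next to Hoxd13, had an end peak of 229 bp. Evx1, which lies on the Hoxa13 side of its cluster but beyond the 50 kb flank, had one of 573 bp.

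Short motifs were searched by their letters on both strands of the 24 Hox windows. CCAAT, the letters of the CCAAT box, occurred in 15 (62.5%), against 38.2% of 21263 windows of all protein-coding genes. TATAAA occurred in 4 (16.7%, against 12.6%), TAATTA, a core that homeodomains bind, in 2 (8.33%, against 4.53%), and AGGGGGC, part of the CTCF motif, in 2 (8.33%, against 12.9%). TGATTNAT, a Pbx-Hox composite, occurred in 2 (8.33%, against 2.75%). Both TAATTA windows are those of Hoxd11, 81 and 87 bases before the start, and can be read in the stretches printed above. The cyclic AMP response element TGACGTCA occurred in 0 Hox windows (against 2.23%), and TGATGCAA, letters of the element that Atf4 binds with its partners, occurred in 0 (against 0.865%). A match of letters is a description and not a bound site.

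The labelled cell type was checked on marker genes. An end peak was present at 4 of 5 genes of cortical excitatory neurons and 4 of 4 pan-neuronal genes. The counts were 1 of 3 astrocyte genes (Gfap), 2 of 3 oligodendrocyte lineage genes (Mbp and Olig1), 0 of 3 microglia genes and 1 of 3 vascular and mesenchymal genes (Col1a1). Either gene end counts here, and the promoter window of Gfap held no peak. The share over all protein-coding genes was 70.4%, so these short lists say little about the cell type. The part of any other cell type in the Hox peaks was not tested.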

How the data were processed

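Libraries were sequenced as pairs of 50 bp reads, per the labels. Tools named are MultiQC, MACS2 and deepTools, with build mm10, per the submitters' processing notes, and peak names carry that of MSPC, a program that combines calls of replicates. Not given in the sources used here were aligner, Tn5 shift, duplicate handling, thresholds and which samples entered the list. The authors deposited 1 interval list with a score per peak, whose unit is not stated, and no depth.

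From it, overlaps, widths, densities and covered shares were computed with scipy 1.17.1, pandas 2.3.3, numpy 2.4.6 and matplotlib 3.10.9 in Python 3.11.15, and checked on simulated intervals. RefSeq GRCm38.p6 gave outermost gene ends (365 of 49997 genes without a placed chromosome were left out) and promoter windows, which also gave the strand. Hox genes without a window took the strand of their cluster. A peak belongs to the region that holds its midpoint, and a gene has a peak where any base lies in the window. Share intervals are exact Clopper-Pearson, density intervals exact Poisson. With 1 pooled list there was no test and no p-value. Members and lists were chosen with earlier results of these data known. All 39 genes are counted, with values for the 3 widest end peaks and those without one in each cluster, and in other lists the 3 widest and up to 3 without; a few of these are not reported here. Alternatives were other end windows, peaks of at least 500 bp, any overlap, wider spans, other flanks and other paralogue classes.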

Additional observations from a re-analysis of the deposited data

How the results depend on the processing

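Of 34 alternatives, 19 left a count or covered share within 1.5 times its value, or a density, percentage or median within its 95% interval, and 15 did not. Hox genes with an end peak numbered 11 with a 500 bp window (28.2%, against 66.2% of all genes), 25 with a 2500 bp window (64.1%, against 77.0%), 8 when peaks under 500 bp were left out (20.5%, against 63.2%) and 4 when the end itself had to be covered (10.3%, against 57.9%). Hox promoters with a peak numbered 6 of 22 within 1000 bp of the start (27.3%, against 68.0%), 1 without peaks under 500 bp, and 5 of 39 with the window at the outermost 5′ end. Counting peaks of at least 500 bp alone, density fell to 3.79 per 100 kb in Hoxa, 1.15 in Hoxb, 0.864 in Hoxc and 1.03 in Hoxd, and covered shares to 2.6% in Hoxa, 1.1% in Hoxb, 0.483% in Hoxc and 0.604% in Hoxd. Of all nuclear peaks 38.3% reach 500 bp, so the density of the genome falls under this limit too. No genome density or covered share was computed at this limit, and in Hoxa 4 of 10 peaks reach it. On genes with a promoter window alone, a choice made after seeing the data like that of the outermost window, the 5′ share was 27.3%, against 43.6% over all 39. Joining close peaks was chosen after seeing the data too. No paired analysis was possible because the list holds no values per sample. The depth behind the list is unknown, so a missing peak means not listed, which is not the same as closed, and how many samples must share a peak is unknown.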

Other observations

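The 168 CpG-rich promoter windows without a peak belong to 158 genes and hold 21 to 59 CpG, with a median of 26. The Hoxa13 window has 45 CpG, and 8 of the 168 have more.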
